A study of Arabidopsis thaliana with 6 samples.

Results

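The genes described are 46 loci of Arabidopsis thaliana that take up, move, reduce and assimilate nitrogen or regulate these steps. They were picked by locus code from named families, namely nitrate transporters of the NRT1, NRT2 and NRT3 types, nitrate and nitrite reductase, and the enzymes of ammonium assimilation. Ammonium transporters, other anion and amino acid transporters, BT proteins, NLP7 and LBD37 to LBD39 completed the set. Not every gene of these families is in it, and earlier results of these data were known when the genes were chosen. Each of the 46 had 1 row in the deposited table, which covers 29920 loci in 30237 rows.

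Transcripts were measured on tiling arrays in leaf 3 of Col-0 seedlings at 9 DAS. The 3 arrays of ERF6:IOE came from a line that strongly overexpresses the transcription factor gene ERF6, and the 3 arrays of GFP:IOE came from the control line. Seedlings of both lines had been moved to MS medium with 5 µM dexamethasone for 4 h, so the inducer itself was present in every sample. Each genotype was represented by 1 line, the labels do not name the promoter that drives the transgene, and the samples are stated to come from independent experiments, without saying which repeat came from which. Uninduced samples are not part of the comparison, which therefore holds any difference that the lines had beforehand.

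Plants take up nitrate through low-affinity NRT1 and high-affinity NRT2 transporters and reduce it to nitrite in the cytosol with nitrate reductase. Nitrite reductase in the plastid makes ammonium, which glutamine synthetase and glutamate synthase build into glutamine and glutamate. In leaves, nitrate is also stored in the vacuole and moved on to growing organs through the phloem. NLP7 switches on nitrate-responsive genes, and LBD37, LBD38 and LBD39 are known as repressors of genes for nitrate uptake and assimilation.

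ERF6 served as the check of the labels. Its log2 expression was 6.89, 7.38 and 7.55 in GFP:IOE repeats 1 to 3 and 9.99, 9.97 and 10.4 in ERF6:IOE, 7.22 times as much on the linear scale (log2 fold 2.85 with an SE of 0.20 and a limma adjusted p of 0.00107). All values are log2 expression after RMA, and a log2 fold is the mean of ERF6:IOE minus the mean of GFP:IOE with n = 3 arrays per line. Of the leaf mesophyll markers, 3 of 5 had a row (RBCS1A, CA1 and RCA) and lay between 11.1 and 14.2 on the 6 arrays. RBCS1A had the highest mean of all rows, with values of 14.19 to 14.22 at the top of the scale. A difference between the lines could therefore hardly show in RBCS1A. No marker of mesophyll, phloem, xylem, root, shoot meristem or senescence passed the test (18 measured), where 0.724% of all rows did. At an unadjusted p under 0.05 the limma fit had 1 of the markers higher and none lower, against 4.8% and 3.22% of all rows. In whole leaves, more cells of a type and more RNA per cell cannot be told apart.

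Of the 46 genes, 5 rose in ERF6:IOE and none fell. Those that rose were the nitrate transporter gene NRT1.7 (AT1G69870), the anion channel gene SLAH2 (AT4G27970), the nitrate reductase gene NIA2 (AT1G37130), the ammonium transporter gene AMT1;1 (AT4G13510) and the scaffold protein gene BT4 (AT5G67480). Their rises ran from 1.56-fold to 2.79-fold. The other 41 genes did not pass the test, which was an adjusted p of at most 0.05 in limma over all 30237 rows. Over all rows, 0.698% passed as higher and 0.0265% as lower, while 10.9% of the 46 genes passed as higher. Since the set was chosen with earlier results of these data known, its share is a description and not a test. At an unadjusted p under 0.05, 10 of the 46 were higher and 2 lower, against 4.8% and 3.22% of all rows. Without GFP:IOE replicate 3 the count of genes called higher was 3, with 126 rows of the whole table higher, against 211 with all arrays. That count was 2 without any other single array, with 87 to 126 rows higher. When any 1 repeat was left out of both lines it was 0, with 45 to 53 rows higher. No gene of the set was called lower in those fits.

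The middle of the set differed little between the lines. The median log2 fold of the 46 genes was 0.04, with quartiles at -0.07 and 0.19, and that of all rows was -0.02, with quartiles at -0.11 and 0.10. Of the 46, 28 had a positive and 18 a negative log2 fold, or 60.9% positive against 46.2% of all rows. In 12 genes the lines did not overlap, 10 higher and 2 lower, or 26.1% of the set against 13.5% of all rows (6.93% higher and 6.52% lower).

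**Figure D1:**
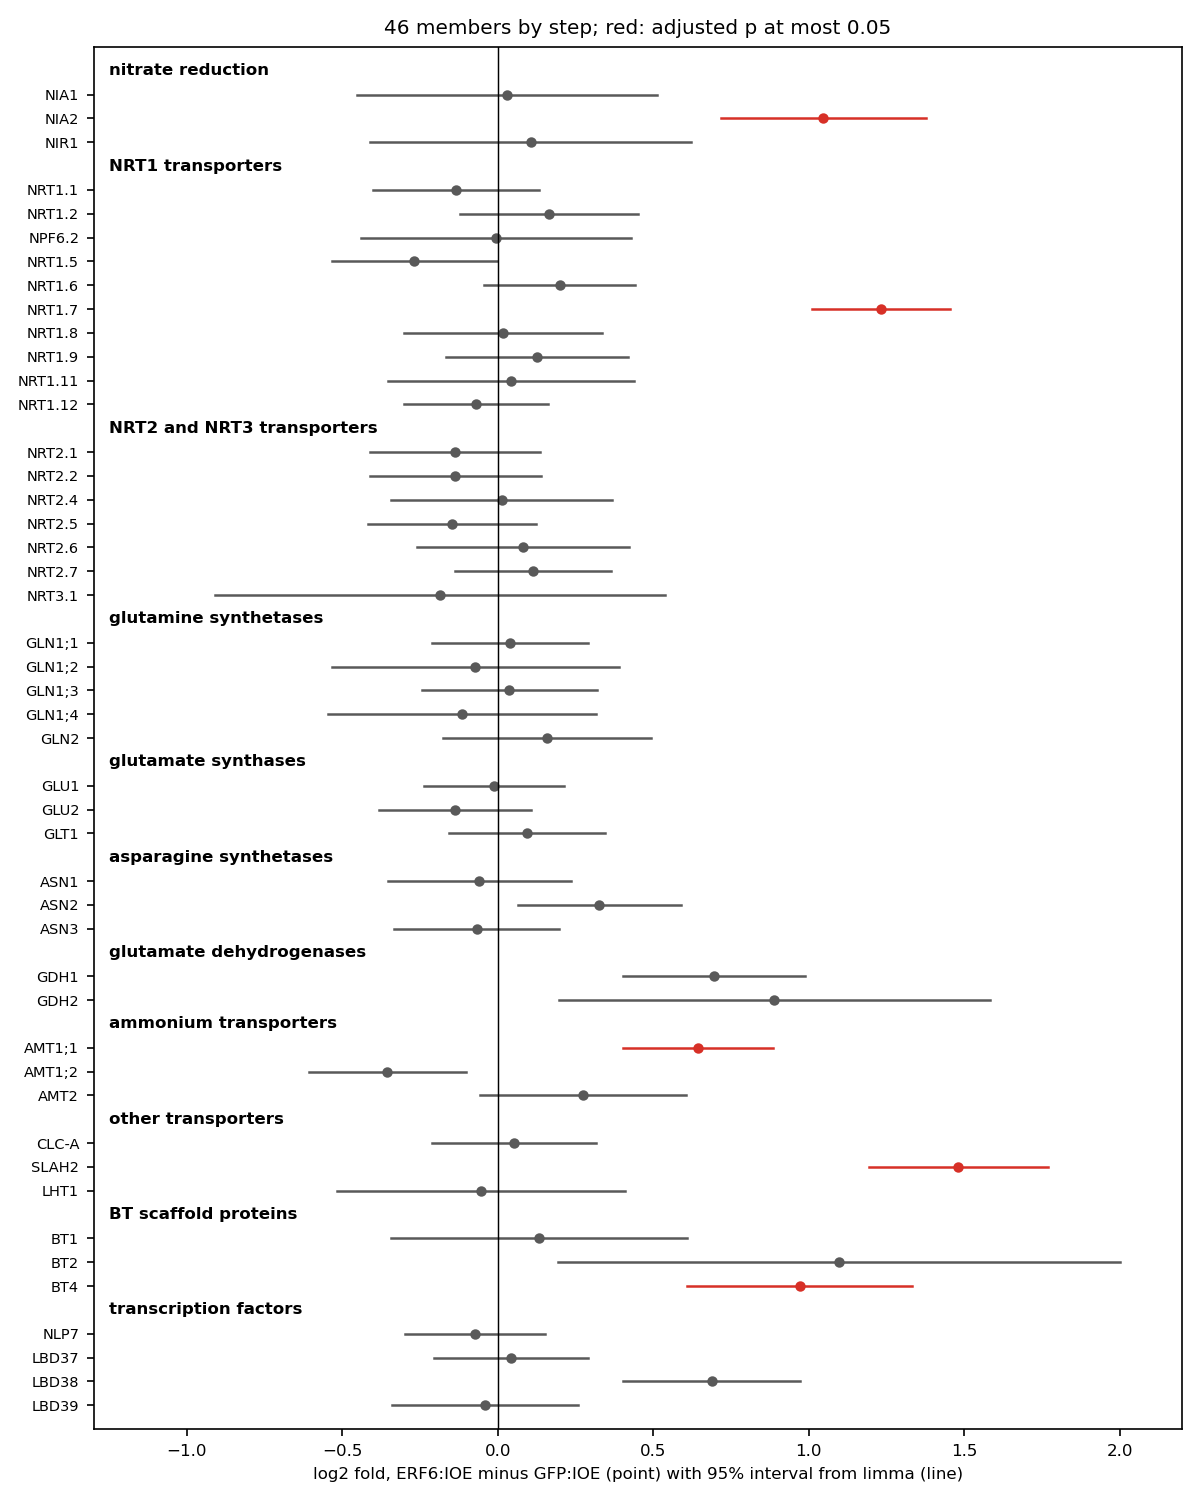
Log2 fold of each of the 46 genes, ERF6:IOE minus GFP:IOE (x axis, log2 units), grouped by step, with points for the estimate and lines for its 95% interval from limma. The 5 red genes passed the test. SLAH2 (1.48) and NRT1.7 (1.23) had the highest estimates among them, and 33 genes lie within 0.2 of 0.

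Among the 3 genes of nitrate reduction, 1 rose. NIA2 encodes the nitrate reductase isoform that provides most of the activity in Arabidopsis leaves. Its log2 expression was 7.28, 7.22 and 6.88 in GFP:IOE repeats 1 to 3 and 8.33, 8.14 and 8.05 in ERF6:IOE. Every ERF6:IOE array lay above every GFP:IOE array, and repeat 3 was the lowest within each line. The mean went from 7.13 ± 0.22 to 8.17 ± 0.14 (SD), a 2.06-fold rise (log2 fold 1.05 with an SE of 0.14, limma adjusted p 0.0232). The call was lost when any 1 of the 6 arrays was left out (limma adjusted p 0.0602 to 0.0972), while the log2 fold stayed between 0.92 and 1.12 without an array or a repeat.

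NIA1 (AT1G77760), the other nitrate reductase gene, had a log2 fold of 0.03 (95% interval -0.45 to 0.51). Its values of 7.30, 7.15 and 6.74 in GFP:IOE were met by 7.43, 7.10 and 6.76 in ERF6:IOE, so the lines overlapped and the repeats kept the same order in both. NIR1 (AT2G15620), the nitrite reductase gene, had a log2 fold of 0.10 (95% interval -0.41 to 0.62), with 6.82 to 7.58 in GFP:IOE and 6.98 to 7.54 in ERF6:IOE. The log2 fold of NIA2 exceeded that of NIA1 by 1.02, with values from 0.92 to 1.15 over the 3 repeats. An exact two-sided permutation test gave p = 0.1, the smallest that 3 against 3 arrays can give, and 0.229 after Benjamini-Hochberg adjustment over 16 pairs of related genes.

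Of the 10 NRT1 transporter genes, 1 rose. NRT1.7 encodes a phloem-located transporter known for moving nitrate out of older leaves. Its log2 expression was 4.17, 4.02 and 4.15 in GFP:IOE repeats 1 to 3 and 5.37, 5.35 and 5.31 in ERF6:IOE. The lines were far apart relative to their spread, with an SD of 0.09 in GFP:IOE and 0.03 in ERF6:IOE. The rise was 2.35-fold (log2 fold 1.23, SE 0.10, 95% interval 1.01 to 1.45), and the limma adjusted p of 0.00179 was the lowest among the 46 genes. The call held without any 1 array (limma adjusted p 0.0115 to 0.0154) and was lost without any 1 repeat of both lines (0.0587 to 0.0849). The value of GFP:IOE repeat 2 lay below the lower quartile of its array (quartiles from 4.03 to 4.08), a range that RMA compresses, so the fold is approximate.

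Phloem marker genes did not pass the test. SUC2, a companion cell sucrose transporter gene, had a log2 fold of 0.26, AHA3 of 0.18 and APL of -0.01. Their summed log2 expression ran from 15.3 to 16.6 in GFP:IOE and from 15.0 to 17.2 in ERF6:IOE, so the lines overlapped. The part of phloem content in the NRT1.7 result was not tested.

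The nearest relatives of NRT1.7 in the set did not pass. NRT1.6 (AT1G27080), known for nitrate supply to the embryo, had a log2 fold of 0.20 (95% interval -0.04 to 0.44). Its values were 4.17 to 4.32 in GFP:IOE and 4.31 to 4.50 in ERF6:IOE. They lay near the lower quartiles of the arrays, in the range that RMA compresses, so the fold of NRT1.6 is approximate. Without detection calls, whether NRT1.6 was expressed in these leaves cannot be told. NRT1.9 (AT1G18880), known for phloem nitrate transport in roots, had a log2 fold of 0.13 (95% interval -0.17 to 0.42). The log2 fold of NRT1.7 exceeded that of NRT1.6 by 1.03 (0.88 to 1.25 over repeats) and that of NRT1.9 by 1.11 (0.77 to 1.28), each with an exact permutation p of 0.1 and an adjusted p of 0.229.

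NRT1.5 (AT1G32450), which loads nitrate into the root xylem, was the NRT1 gene with the most negative log2 fold. Its values were 4.17, 4.36 and 4.17 in GFP:IOE and 4.07, 3.81 and 4.00 in ERF6:IOE. The lines did not overlap, but the log2 fold of -0.27 (SE 0.11) did not pass (limma adjusted p 0.617), and on all 3 ERF6:IOE arrays the value lay below the lower quartile. Without repeat 2 of both lines the log2 fold of NRT1.5 was -0.13. The 6 NRT1 genes not yet given had log2 folds from -0.14 to 0.16. The lowest of them was NRT1.1 (AT1G12110), the transporter that also senses nitrate, and the highest NRT1.2 (AT1G69850), a constitutive low-affinity transporter that also carries abscisic acid. Between these lay NPF6.2 (AT2G26690) at -0.01, NRT1.8 (AT4G21680) at 0.02, and NRT1.11 (AT1G52190) and NRT1.12 (AT3G16180) at 0.04 and -0.07. NRT1.8 removes nitrate from the xylem, and NRT1.11 and NRT1.12 are known for transferring nitrate to the phloem of larger leaves. The values of NRT1.8 (4.05 to 4.44) lay near the lower quartiles of the arrays, so its fold is approximate.

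None of the 7 NRT2 and NRT3 genes passed, and in each the lines overlapped. Their log2 folds ran from -0.19 to 0.11, and none had an unadjusted p under 0.05 in limma. NRT2.1 (AT1G08090), the main high-affinity uptake transporter of roots, and its tandem neighbour NRT2.2 (AT1G08100) each had a log2 fold of -0.14 (95% interval -0.41 to 0.14). On 2 ERF6:IOE arrays NRT2.1 lay below the lower quartile (3.93 and 3.98), in the range that RMA compresses, so its fold is approximate. The values of NRT2.2 (4.07 to 4.49) lay near the lower quartiles, so its fold is approximate too. NRT2.5 (AT1G12940), known from nitrogen-starved plants, had a log2 fold of -0.15 and NRT2.4 (AT5G60770) of 0.01. NRT2.6 (AT3G45060) had 0.08 and the vacuolar transporter gene NRT2.7 (AT5G14570) 0.11. NRT3.1 (AT5G50200), the partner protein of NRT2 transporters, had a log2 fold of -0.19 with a wide 95% interval (-0.91 to 0.54). Its GFP:IOE values were 5.66, 4.47 and 5.19, against 5.06, 5.18 and 4.52 in ERF6:IOE, so its fold stays uncertain over that interval.

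SLAH2 had the highest log2 fold of the set. It encodes an anion channel of the SLAC family that is selective for nitrate. Values were 4.16, 4.28 and 4.10 in GFP:IOE repeats 1 to 3 and 5.87, 5.60 and 5.52 in ERF6:IOE, with a wide gap between the lines. The rise was 2.79-fold (log2 fold 1.48, SE 0.12, 95% interval 1.19 to 1.77, limma adjusted p 0.00271). The GFP:IOE values of SLAH2 lay just above the lower quartiles of the arrays, in the same compressed range as those of NRT1.7, so this fold is approximate too. It held without any 1 array (limma adjusted p 0.00964 to 0.0201) and was lost without any 1 repeat of both lines (0.0519 to 0.0746). CLC-A (AT5G40890), the gene of a vacuolar nitrate and proton exchanger, had a log2 fold of 0.05 and did not pass. LHT1 (AT5G40780), an amino acid transporter gene, had -0.06 and did not pass either.

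Of the 3 ammonium transporter genes, 1 rose, and AMT1;1 and AMT1;2 (AT1G64780) had log2 folds of opposite sign. AMT1;1, a high-affinity ammonium transporter gene, had values of 6.63, 6.64 and 6.57 in GFP:IOE repeats 1 to 3 and 7.33, 7.12 and 7.32 in ERF6:IOE. The arrays of ERF6:IOE were all higher, with a 1.56-fold rise (log2 fold 0.64 with an SE of 0.10, limma adjusted p 0.0478). This call lies just inside the threshold, passed in 5 of the 10 alternatives that kept all 6 arrays and missed without any 1 array (limma adjusted p 0.088 to 0.187), whereas the log2 fold stayed between 0.59 and 0.73.

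AMT1;2, a transporter gene of the root endodermis and cortex, had values of 5.38, 5.28 and 5.09 in GFP:IOE and 4.89, 4.93 and 4.86 in ERF6:IOE. Its arrays did not overlap in the downward direction, but the log2 fold of -0.36 had an SE of 0.11 (limma adjusted p 0.363) and did not pass. The log2 folds of AMT1;1 and AMT1;2 differed by 1.00, from 0.82 to 1.19 over repeats, with an exact permutation p of 0.1 and an adjusted p of 0.229. AMT2 (AT2G38290), a more distant ammonium transporter gene, had 6.42, 5.97 and 6.39 in GFP:IOE and 6.62, 6.50 and 6.48 in ERF6:IOE. Its lines were separate by a narrow margin, at a log2 fold of 0.27 with an SE of 0.14 (limma adjusted p 0.72). GFP:IOE repeat 2 was the lowest array, and without it the log2 fold of AMT2 was 0.13 (0.13 to 0.36 with any array or repeat left out).

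**Figure D2:**
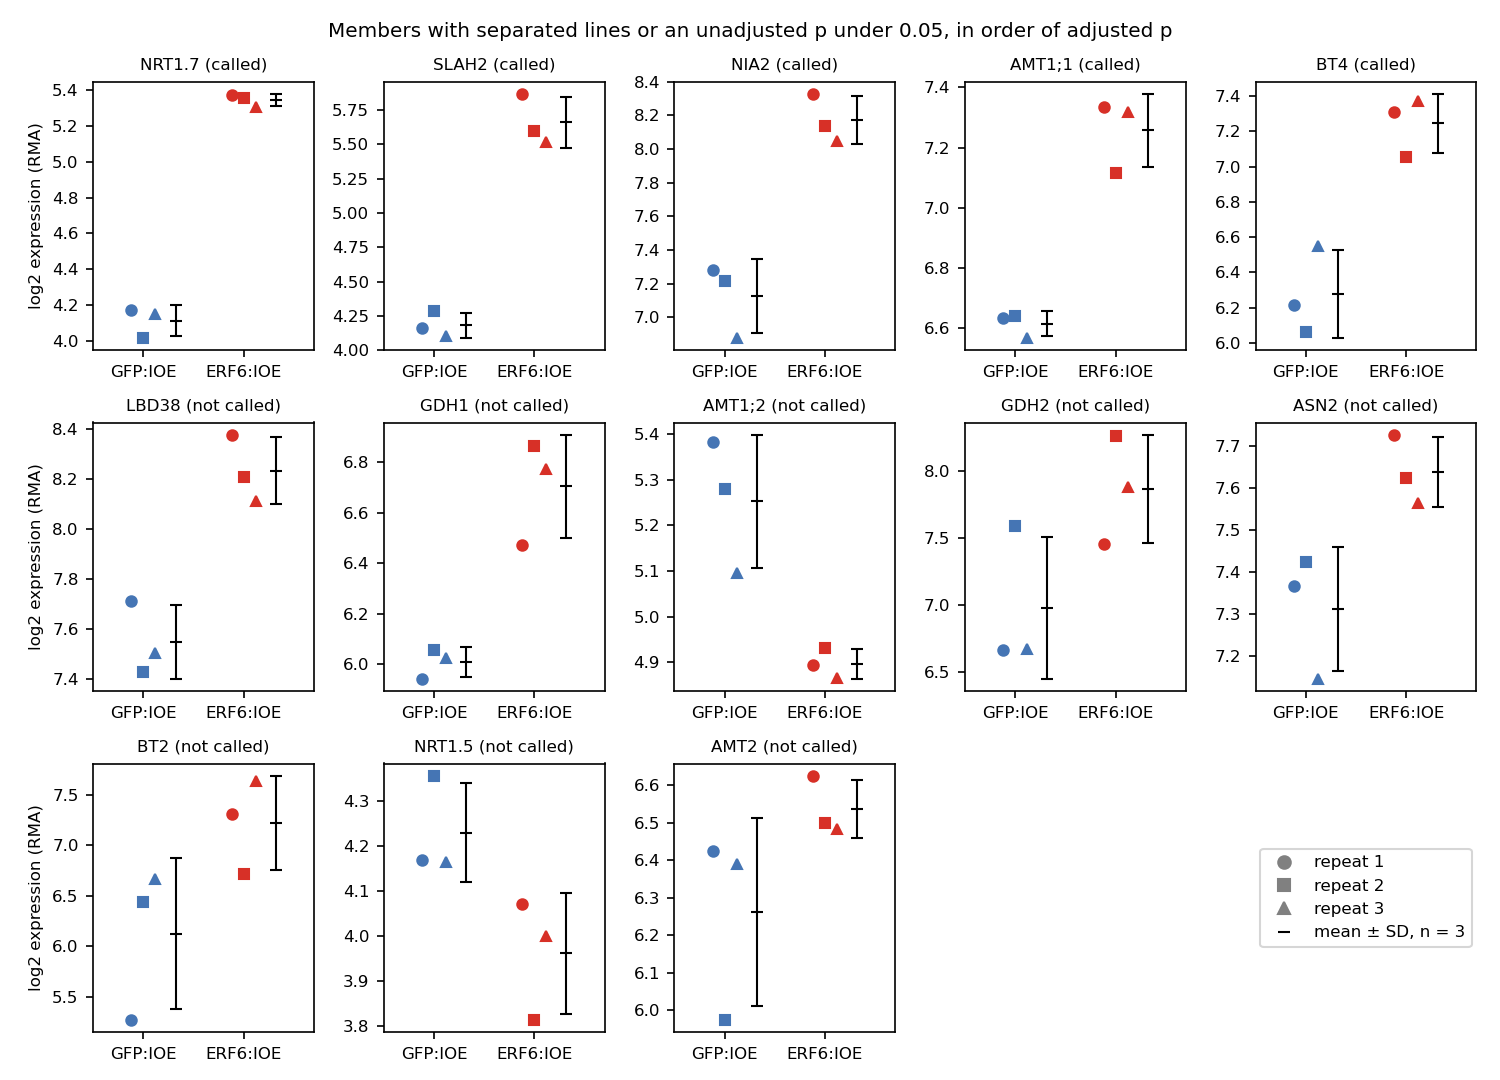
Log2 expression after RMA (y axis, a separate range in each panel that does not start at 0) on each array of GFP:IOE (blue) and ERF6:IOE (red) for 13 genes, in order of adjusted p. Symbols mark repeats and bars the mean ± SD (n = 3). In the 5 called genes all red points lie above all blue points, and in GDH2 the lines overlap, with repeat 2 the highest in both.

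No gene of glutamine or glutamate synthesis passed the test. The 5 glutamine synthetase genes overlapped between the lines, with log2 folds from -0.12 for GLN1;4 (AT5G16570) to 0.16 for GLN2 (AT5G35630), the plastid isoform. GLN1;4 had values of 4.04 to 4.68, in part near the lower quartiles of the arrays, so its fold is approximate. Values of GLN2 were 10.59, 10.97 and 10.50 in GFP:IOE and 10.74, 10.90 and 10.89 in ERF6:IOE, so the lines overlapped. The cytosolic isoform genes GLN1;1 (AT5G37600), GLN1;2 (AT1G66200) and GLN1;3 (AT3G17820) had log2 folds of 0.04, -0.07 and 0.04. Glutamate synthase genes did not pass either, with GLU1 (AT5G04140), the main ferredoxin-dependent isoform of leaves, at -0.01 (95% interval -0.24 to 0.21), GLU2 (AT2G41220) at -0.14 and the NADH-dependent GLT1 (AT5G53460) at 0.09. No gene of these groups had an unadjusted p under 0.05 in limma.

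None of the 3 asparagine synthetase genes passed the test. ASN2 (AT5G65010) had 7.37, 7.42 and 7.15 in GFP:IOE and 7.73, 7.62 and 7.56 in ERF6:IOE, which did not overlap. Its log2 fold of 0.33 (SE 0.11) did not pass (limma adjusted p 0.459). ASN1 (AT3G47340), which is induced by darkness and also known as DIN6, had a log2 fold of -0.06 (95% interval -0.35 to 0.23), and ASN3 (AT5G10240) had -0.07 (-0.33 to 0.20). The log2 fold of ASN2 exceeded that of ASN3 by 0.39, from 0.28 to 0.46 over repeats, and that of ASN1 was lower than that of ASN2 in 3 of 3 repeats (-0.39). Both differences had an exact permutation p of 0.1, or 0.229 adjusted.

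Both glutamate dehydrogenase genes of the set had positive log2 folds and missed the threshold. These enzymes release ammonium from glutamate when carbon is scarce. GDH1 (AT5G18170) had 5.94, 6.06 and 6.03 in GFP:IOE repeats 1 to 3 and 6.47, 6.87 and 6.77 in ERF6:IOE, with no overlap. Its log2 fold was 0.70 (SE 0.13, limma adjusted p 0.0762), and it passed in 3 of 19 alternatives. GDH2 (AT5G07440) had 6.67, 7.59 and 6.67 in GFP:IOE and 7.46, 8.26 and 7.88 in ERF6:IOE. Repeat 2 was the highest in both lines, so the lines overlapped although ERF6:IOE was higher in 3 of 3 repeats, by at least 0.67. The log2 fold of GDH2 was 0.89 (SE 0.30, limma adjusted p 0.429, or 0.105 with the repeat number as a block).

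BT proteins are scaffolds with BTB and TAZ domains, and BT1 (AT5G63160) and BT2 (AT3G48360) are known as nitrate-responsive genes that limit nitrogen use. BT4 had 6.21, 6.06 and 6.55 in GFP:IOE repeats 1 to 3 and 7.31, 7.06 and 7.37 in ERF6:IOE, with repeat 2 the lowest in both lines. It rose 1.96-fold (log2 fold 0.97, SE 0.15, limma adjusted p 0.0478). It passed in 7 of 19 alternatives, among them the one without GFP:IOE replicate 3 (limma adjusted p 0.0426), and missed without any other single array (0.0921 to 0.181).

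BT2 had a similar log2 fold with far more spread. Its values were 5.27, 6.44 and 6.67 in GFP:IOE and 7.30, 6.72 and 7.64 in ERF6:IOE. GFP:IOE repeat 1 was the lowest, and the gap between the highest control and the lowest ERF6:IOE array was small. The log2 fold was 1.10 (SE 0.39, 95% interval 0.19 to 2.00, limma adjusted p 0.478), with 2.04 in repeat 1 and 0.28 in repeat 2. Without GFP:IOE replicate 1 the log2 fold of BT2 was 0.67, and it ran from 0.63 to 1.51 with any array or repeat left out. BT1 had a log2 fold of 0.13 (95% interval -0.35 to 0.61), and the difference between BT1 and BT2 was -0.97 with an exact permutation p of 0.3 (adjusted 0.48). Among the context genes, BT5 (AT4G37610) had a log2 fold of -0.14 (95% interval -0.85 to 0.57) and did not pass. BT3 (AT1G05690) had 0.02 and did not pass either, with values below the lower quartile on 3 arrays of each line.

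The senescence and dark marker SEN1 was also at its lowest in GFP:IOE repeat 1, at 3.90 against 5.23 and 5.21 in the other repeats and 5.40, 5.80 and 6.51 in ERF6:IOE. Its log2 fold of 1.12 did not pass (limma adjusted p 0.502). Of the 3 senescence markers, only SEN1 had lines that did not overlap. In SAG12 (log2 fold 0.03) and SAG13 (-0.27) the lines overlapped. The summed log2 expression of the 3 markers ran from 12.8 to 13.7 in GFP:IOE and from 13.9 to 14.5 in ERF6:IOE. SAG12 and SAG13 did not show this separation on their own. The part of senescence in the BT and GDH values was not tested.

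None of the 4 transcription factor genes passed. LBD38 (AT3G49940) came closest, with 7.71, 7.42 and 7.50 in GFP:IOE repeats 1 to 3 and 8.38, 8.21 and 8.11 in ERF6:IOE. These values did not overlap, and the log2 fold was 0.69 (SE 0.12, limma adjusted p 0.0709). LBD38 was the first gene outside the threshold and GDH1 the next, while BT4 and AMT1;1 were the last inside it. LBD37 (AT5G67420) had a log2 fold of 0.04 (95% interval -0.21 to 0.29), LBD39 (AT4G37540) of -0.04 (-0.34 to 0.26) and NLP7 (AT4G24020) of -0.07 (-0.30 to 0.15). The log2 fold of LBD37 was below that of LBD38 in 3 of 3 repeats, by -0.76 to -0.56 with a mean of -0.65 (exact permutation p 0.1, adjusted 0.229).

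Related genes were compared within arrays in 16 pairs chosen by family. In 7 pairs the lines did not overlap, and each of the 7 had an exact permutation p of 0.1, which is the smallest possible here, so no pair could pass a threshold of 0.05. The 7 pairs were NIA2 with NIA1, NRT1.7 with NRT1.6 and with NRT1.9, ASN1 with ASN2, ASN2 with ASN3, AMT1;1 with AMT1;2, and LBD37 with LBD38. By contrast, GLN1;1 and GLN1;3 differed by less than 0.01 in their log2 folds, within -0.01 to 0.02 over repeats. A difference within an array shows unequal change only, and probes shared between close relatives were not separated.

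**Figure D3:**
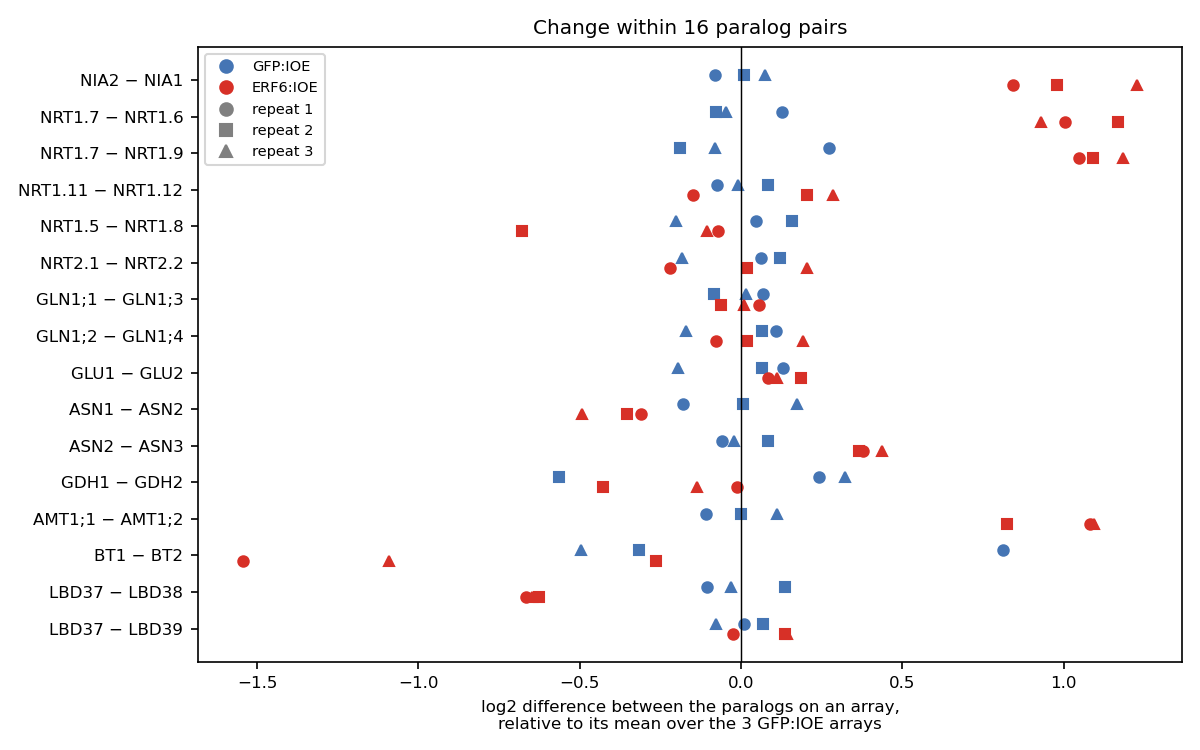
Log2 difference between the first and the second gene of 16 pairs on each array, relative to its mean over the 3 GFP:IOE arrays (x axis, log2 units), for GFP:IOE (blue) and ERF6:IOE (red). Symbols mark repeats. The ERF6:IOE arrays stand apart in 7 pairs, by 1.02 for NIA2 and NIA1 and by -0.65 for LBD37 and LBD38.

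The 5 called genes do not lie next to one another. Of their 10 direct neighbours in the gene order of TAIR10.1, 1 passed the test as higher, where 0.698% of all rows did. The log2 folds of these neighbours ran from -0.03 to 0.60. The neighbour that passed was AT4G27980, which follows SLAH2, at a log2 fold of 0.60 with an SE of 0.10 (limma adjusted p 0.0474). UBC9, on the other side of SLAH2, had 0.33 and did not pass (limma adjusted p 0.664). The signal of neighbouring transcripts on these arrays was not separated. AT1G69860, beside NRT1.7, had a log2 fold of -0.03.

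**Figure D4:**
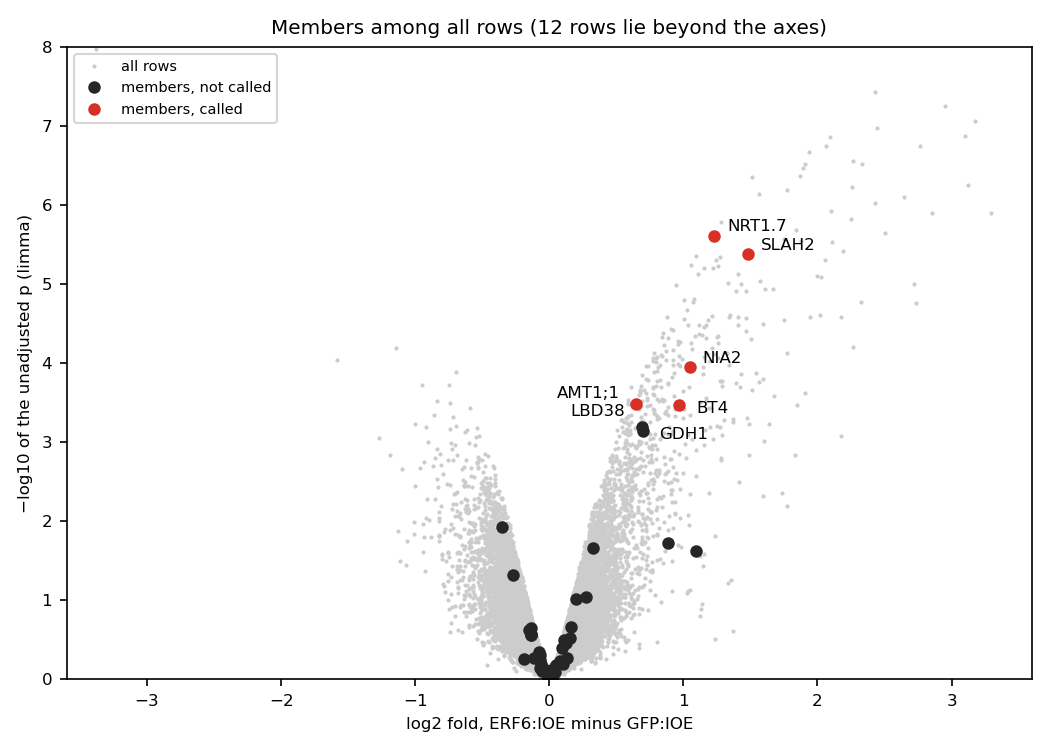
Log2 fold (x axis) against −log10 of the unadjusted limma p (y axis) for all 30237 rows (grey), the 41 genes of the set that did not pass (black) and the 5 that did (red). NRT1.7 and SLAH2 stand highest among the 46, while LBD38 and GDH1 lie just under AMT1;1 and BT4.

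Another 61 genes of the same pathways were examined for context, and none passed the test, where 0.724% of all rows did in either direction. At so low a share, the absence of a call among 61 genes says little about these pathways. In limma 2 were higher and 2 lower at an unadjusted p under 0.05, against 4.8% and 3.22% of all rows. The median log2 fold of the 61 genes was -0.01. Among 22 further regulators of nitrate responses, TGA4, a bZIP factor of root nitrate responses, had the largest log2 fold, 0.57 (SE 0.12, limma adjusted p 0.139). CIPK8, a protein kinase of nitrate signalling, had 0.24. The 11 genes of cofactor and reductant supply had log2 folds from -0.22 to 0.25, with CNX2, of molybdenum cofactor synthesis for nitrate reductase, at 0.25. The 11 other transporter genes included the nitrate efflux gene NAXT1 at 0.40 and AMT1;5 at -0.31. None of 10 further assimilation enzymes had an unadjusted p under 0.05, and their log2 folds ran from -0.03 to 0.27. Of 7 amino acid permease genes, 6 had negative log2 folds and 1 a positive one, where 46.2% of all rows were positive. AAP5 was at -0.44 (SE 0.11, limma adjusted p 0.26).

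The spread between repeats varied among the genes. Within a line the SD exceeded 0.3 in 11 of the 46 genes. It was highest for BT2 (0.75 in GFP:IOE), NRT3.1 (0.60 in GFP:IOE) and GDH2 (0.53 in GFP:IOE). For these genes the arrays limit what can be seen, and the 95% interval of GDH2 spans 0.20 to 1.58. The 33 genes whose lines overlapped without an unadjusted p under 0.05 had log2 folds from -0.19 to 0.20, with a median of 0.01.

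**Figure D5:**
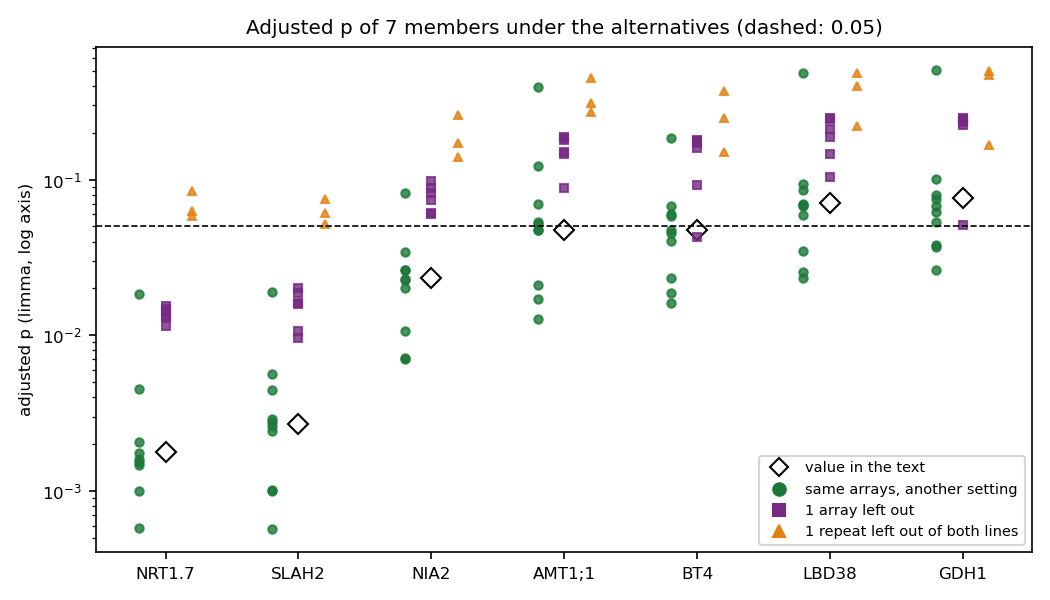
Adjusted p from limma (y axis, log scale) of the 5 called genes and the 2 nearest misses in the text (diamonds), with another setting on the same arrays (green), 1 array left out (purple) or 1 repeat left out of both lines (orange). NRT1.7 and SLAH2 stay below 0.05 except without a repeat, and the other genes lie on both sides of the dashed line at 0.05.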

How the data were processed

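The deposited table holds log2 expression on 6 AGRONOMICS1 arrays, which the authors made with RMA. The submitters' processing notes name RMA, limma and the build TAIR9 without versions or settings. RMA corrects background, quantile-normalises arrays and summarises probes, so shifts between whole arrays are removed and low values compressed. Array medians ran from 4.85 to 4.90. The table has no detection calls, sequencing depth does not apply, and the number of arrays limits precision.

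The lines were compared with limma 3.58.1 (lmFit, eBayes) in R 4.3.3, without a level filter, two-sided, with Benjamini-Hochberg adjustment over all rows and a threshold of 0.05. SE and 95% intervals are moderated. Exact permutation tests used SciPy 1.17.1. As a check of the code, the fit was run on simulated data. The bar for recovered genes was lowered after the outcome was seen, and power is not reported. Names came by locus from a TAIR10.1 table, in which 44 of 46 names matched as written; NPF6.2 and CLC-A are the table's names. Because builds differ, no coordinates are given.

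The genes and lists were chosen with earlier results of these data known. Genes with an unadjusted p under 0.05 or lines that do not overlap are given on every array (13). Of the 61 context genes, the 6 with the largest moderated t are named, and GDH3, BT3 and BT5 as relatives of genes of the set. ERF6 was named as the check of labels; markers by list; neighbours and SEN1 after their values were seen.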

Additional observations from a re-analysis of the deposited data

How the results depend on the processing

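ERF6 stayed past the threshold in 19 of 19 alternatives. Genes of the set called higher, 5 as reported, were 3 after renewed quantile normalization and 3 after cyclic loess, and 2 against a minimum fold of 1.2 (AMT1;1, BT4 and NIA2 lost there). Rows of the whole table called higher were 198, 220 and 105 in these fits. The genes were 4 after centring (210 rows) or with array weights (226 rows). They were 7 with a variance trend or above the 30th percentile of level (277 rows in each). Above the median level, where NRT1.7 is not tested, they were 6 (268 rows). With the repeat number as a block there were 4, since AMT1;1 missed (limma adjusted p 0.122), and 143 rows of the whole table were higher and 5 lower, against 211 and 8. Same-numbered arrays had correlations of deviations of 0.192, 0.0782 and 0.21, and the labels do not say that a number marks an experiment, so they were treated as sharing only a number, although each ERF6:IOE array correlated best with its own number. Leaving out arrays or repeats gave 0 to 3 genes higher; with fewer samples 45 to 126 rows of the whole table were higher. The median log2 fold ran from 0.0139 to 0.0745 in those fits. No gene of the set was called lower in any alternative run, and LBD38 and GDH1 passed in 3 of 19 each, with the level filters and the variance trend. None of the 615 values of the other 33 genes under alternatives passed. None of the 13 genes given on every array changed sign. With arrays or repeats left out, the difference of log2 folds ran from -1.48 to -0.27 for BT1 minus BT2 and from -0.48 to -0.0105 for NRT1.5 minus NRT1.8. It ran from -0.19 to 0.14 for NRT2.1 minus NRT2.2 and from -0.12 to 0.16 for GLN1;2 minus GLN1;4, and the other 12 pairs moved by less than 1 SD between arrays. The causes were not tested. Signal over background was not analysed here.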
